A study of Saccharomyces cerevisiae with 24 samples.

Results

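The genes described here are 43 genes of DNA replication and S phase in the budding yeast Saccharomyces cerevisiae, chosen by name for their known function. The choice was made with earlier results of these data known, so the shares of all genes set beside their counts are a description. They comprise 2 genes of deoxynucleotide supply, 5 of the DNA polymerases and primase, 7 of the sliding clamp and its loaders, 5 of other fork proteins, 3 of lagging strand maturation and mismatch repair, 7 of origin recognition and licensing, 7 of the replicative helicase, 2 S phase cyclins, 2 checkpoint kinases and 3 cohesin subunits. All 43 were found among the 5449 yeast genes that the array measured, each by 1 probe set, and none of these probe sets carried the suffix that marks probes shared between genes. The mean level of each of the 43 lay above the dim bound of 6.53, the 95th percentile of mean log2 levels over 1746 probe sets made for another species on the same array. Only 7 of their 1032 array values, from 6 genes, lay under it.

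Replication begins in G1, when the origin recognition complex (ORC) and Cdc6 load the Mcm2-7 helicase onto origins, a step called licensing. S phase cyclins bound to the Cdc28 kinase then fire the licensed origins, Cdc45 joins the helicase, and polymerase alpha-primase, the replicative polymerases, the sliding clamp and the single-strand binding protein RPA copy the DNA while cohesin holds the sister chromatids together. In budding yeast many of these genes are transcribed in a burst at the G1/S boundary by the factors MBF and SBF, so their transcripts are commonly read as a mark of cells passing into S phase. The MCM genes and CDC6 peak earlier, around the end of mitosis, and most ORC genes are known to vary little over the cycle.

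Cells of strain S288C were grown at 28 °C in liquid SD medium and then kept at 28 °C (control), moved to 10 °C (cold) or moved to 37 °C (heat). Each series was sampled at 0, 15 and 30 min and at 1, 2, 4, 8 and 24 h, with 1 array per time and 24 arrays in all, and every level below is given in that order of time. No array has a replicate, so the arrays at 15 min, 30 min and 1 h (the first hour) and those at 2, 4 and 8 h stand in for one another in the tests of these windows. Their p-values measure the spread between times and not between replicate cultures. In the test of 24 h against 0 min the p-values measure how far the time courses of the 3 cultures, each at another temperature, differ. The heat samples were amplified with an extra kit before labelling that the control and cold samples did not share, so a heat effect on absolute levels and a kit effect cannot be told apart. In bulk cultures, fewer cells in S phase and less of a transcript per cell cannot be told apart either.

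Before the shift the cold and control cultures were close in the replication genes, with a median difference at 0 min of -0.02 on the log2 scale and a range from -0.35 for MCD1 to 0.39 for RFC5. None of the 43 differed 2-fold (all genes: 0.0551% higher and 0.496% lower). The heat culture at 0 min, which had not yet been warmed, stood apart from the control at 0 min, with a median difference over the 43 genes of 0.67 and a range from -2.58 for RFA3 to 1.59 for ORC6. There 14 of the 43 were at least 2-fold higher and 1 lower, against 23.8% and 20.2% of all genes. That difference ran with coding length (Spearman rho 0.38 over the 43 genes and 0.39 over all 5449, a description across genes that share these 2 arrays), and the part of the kit in it was not tested. Changes are therefore given from each culture's own 0 min array.

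The 3 cultures took different courses. At 28 °C the replication transcripts stayed near their start for hours and were low at 24 h: the median change of the 43 genes was -0.06, -0.15, -0.31, -0.01, -0.00, -0.39 and -2.21 at the 7 times after the start. In that culture 39 of the 43 lay below their start at 1 h and 40 at 8 h (63.4% and 53.6% of all genes). At 10 °C the transcripts held for the first hour and then sank step by step, with medians of 0.09, 0.05, -0.17, -0.43, -0.88, -1.28 and -1.39. At 37 °C they dipped and were back at their start by 2 h, with medians of -0.36, -0.69, -0.50, 0.04, 0.00, -0.35 and -1.04. The plot of median change over time sets these courses side by side.

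**Figure D1:**
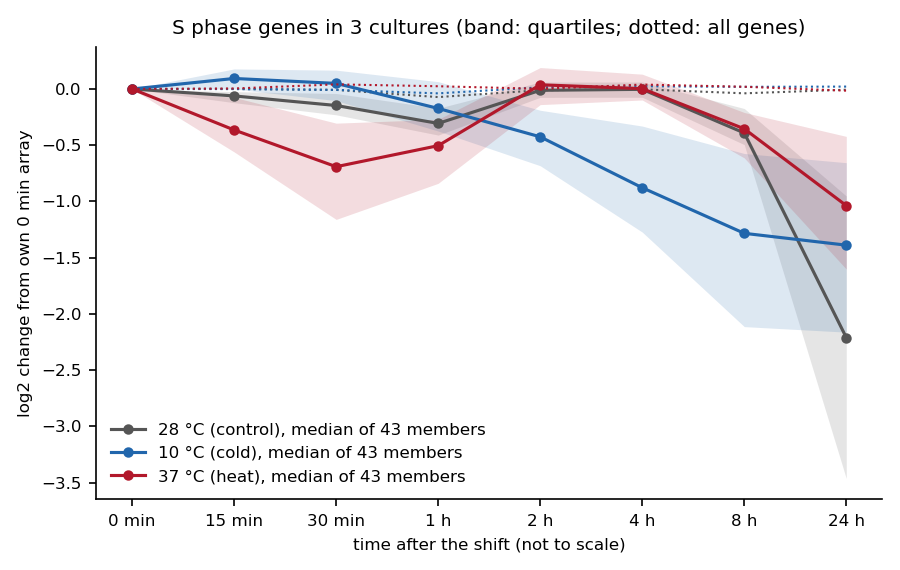
Median log2 change of the 43 replication and S phase genes from each culture's own 0 min array, against time after the shift, on an axis not to scale, with bands between the quartiles and dotted lines for the median of all genes; 1 array per point. The heat median is lowest before 24 h at 30 min (-0.69), the cold median sinks from 1 h onwards to -1.39, and the control median drops at 24 h (-2.21).

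Counted by gene, 30 of the 43 were at least 2-fold below their start in the control at 24 h (20.5% of all genes), and none was at any earlier time (2.28% of all genes at 8 h). In the cold none was at 15 min (1.67% of all genes) or 30 min (3.49%), and the count then grew from 1 (4.39%) after 1 h to 6 (4.4%) after 2 h, 17 (6.85%) after 4 h, 25 (11.9%) after 8 h and 29 (13%) after 24 h. In the heat it was 0 after 15 min (4.13%), 13 after 30 min (10%), 7 after 1 h (8.64%), 0 after 2 h (1.47%) and 4 h (3.12%), 1 after 8 h (4.35%) and 22 after 24 h (17.2%). The only gene at least 2-fold above its start on any array was ORC6 in the control at 24 h, by 1.06 (20.3% of all genes); on the other 20 arrays after the start the share of all genes was between 0% and 16.6%. The timing was shared by most of the group: in the heat 27 of the 43 had their lowest value up to 8 h at 30 min (25.4% of all genes), and 40 lay within 0.5 of their start at 2 h (76% of all genes), while in the cold 36 were lower at each step from 1 to 2, 4 and 8 h (29.4% of all genes).

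**Figure D2:**
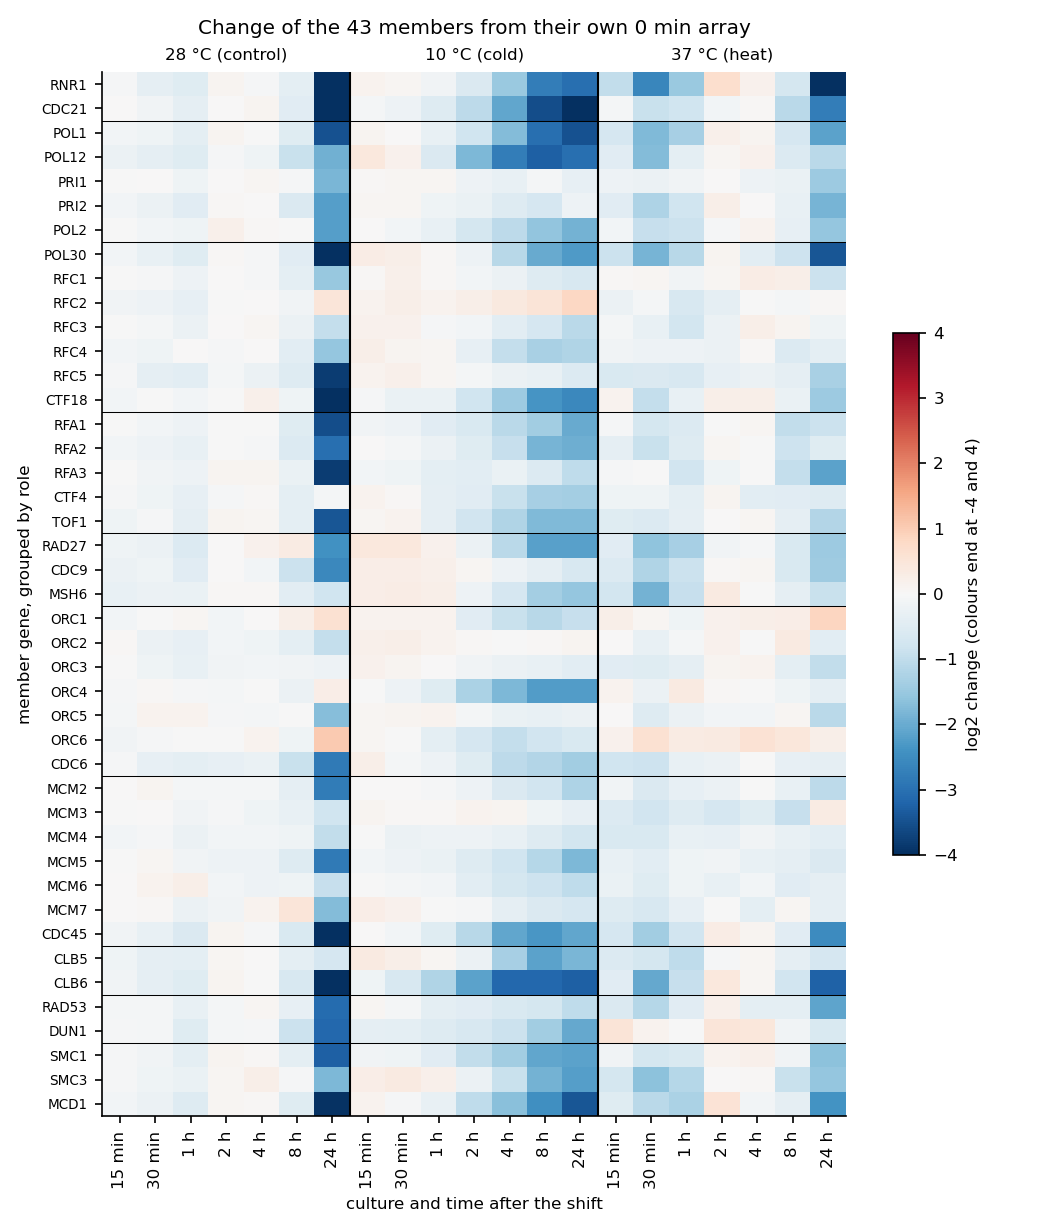
Log2 change of each of the 43 genes from its own culture's 0 min array, genes in rows grouped by role, times in columns, 1 panel per culture. The control panel is pale up to 8 h and dark at 24 h, the cold panel darkens from 2 h, and the heat panel shows a short dip around 30 min, where 13 genes were at least 2-fold lower.

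The test that compares the cold culture's later hours with its first hour, each taken against the control at the same times, found 22 of the 43 genes lower and none higher (limma, Benjamini-Hochberg adjusted p under the threshold of 0.05). Over all genes 11.5% were called lower, and at an unadjusted p under 0.05 the test reached 28 of the 43 genes and 39.9% of all genes. The median change of the group was -0.74. Cold values given below with a standard error are likewise the change in the cold less that in the control. The called genes were both genes of deoxynucleotide supply, both S phase cyclins, all 3 cohesin subunits, 3 of 5 polymerase and primase genes, 3 of 5 fork proteins, 3 of 7 clamp genes, 2 of 3 lagging strand genes, 3 of 7 origin genes, and CDC45 among 7 helicase genes. None of MCM2 to MCM7 and neither checkpoint kinase was called. The cold arrays at 2, 4 and 8 h all lay below those of the first hour for 39 of the 43 genes (31.1% of all genes), against 2 in the control (6.5%) and 0 in the heat (16.7%). Without the 4 h arrays the count was 6 (77 of all genes) and without the 30 min arrays 14 (128). With 24 h added to the later window it was 7 (390 of all genes), against 627 of all genes lower in the main fit. That window also sets the cold against the control at 24 h, where the group's median change was -1.39 and -2.21. The 6 genes called at every leave-out were MCD1, CDC45, SMC1, TOF1, POL12 and CLB6, and the 7 called with 24 h added were POL12, CTF4, MSH6, ORC1, ORC4, CLB5 and SMC3, so POL12 alone was in both.

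Set against the start of the cold culture instead of its first hour, the later cold hours gave no call among the 43 genes (0% of all genes lower), although the median was -0.71 and 21 of the 43 had an unadjusted p under 0.05 (21% of all genes). The smallest adjusted p was 0.0587, for MCD1 at -1.60 ± 0.33, CLB6 at -2.62 ± 0.57, SMC1 at -1.40 ± 0.30 and ORC4 at -1.65 ± 0.38. This comparison rests on a single array at the start of each culture. Without the 2 h arrays it called 12 of the 43 (195 of all genes lower, 223 higher). In the first hour of cold the median was 0.15 and no gene of the group was called in either direction (0% of all genes; 0 of the 43 at an unadjusted p under 0.05, 9.52% of all genes).

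The heat dip did not pass the test. For the first hour at 37 °C the median of the 43 genes was -0.38, with 37 below 0, and limma called none (0% of all genes lower, 0.0184% higher); 1 had an unadjusted p under 0.05, against 8.35% of all genes. The smallest adjusted p was 0.54, for MCM3 at -0.58 ± 0.22, and RNR1 had the lowest value at -1.38 ± 0.63. At 2 to 8 h the median was -0.00, with no call (0% of all genes lower, 0.0551% higher) and 2 genes at an unadjusted p under 0.05 (5.51% of all genes). The return from the first hour to 2 to 8 h had a median of 0.34, with no call (0.147% of all genes higher) and 10 genes at an unadjusted p under 0.05 (20.2% of all genes), RNR1 the largest among them at 1.53 ± 0.45 (adjusted p = 0.15). Without the 30 min arrays that median was 0.21. A log2 change of 1 simulated into 200 genes was called in 12% of them for the first hour of heat and 6.5% for the first hour of cold. It was called in 52% for the return in the heat and in 57% for the later cold hours against the first. The simulation gave the other genes no such change and drew noise independently for each array. The real arrays are successive times of a culture, so these shares need not hold for them.

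The difference between the 2 shifts was then tested directly, in a comparison added after the values had been seen: the change from the first hour to 2 to 8 h at 37 °C less the same change at 10 °C. It was higher in the heat for 37 of the 43 genes and lower for none, with a median of 1.10 (all genes: 24.3% higher, 25.1% lower), and 39 had an unadjusted p under 0.05 (56% of all genes). RNR1 had the largest value at 3.37 ± 0.45 (adjusted p = 0.00037), followed by CLB6 at 3.19 ± 0.40 and POL1 at 2.91 ± 0.39. With 24 h added to the later window 20 genes were called (976 of all genes higher and 987 lower, against 1323 and 1366 in the main fit).

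**Figure D3:**
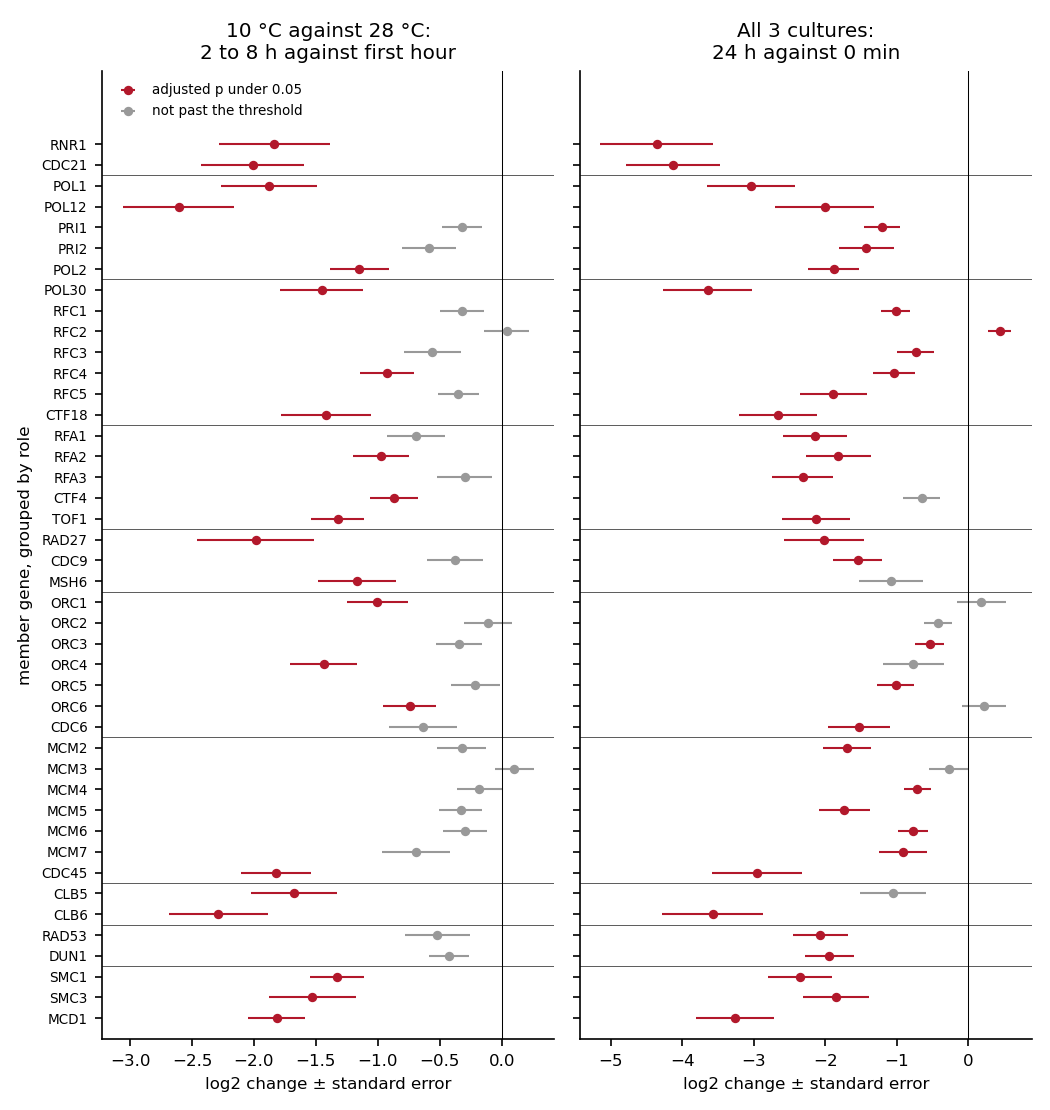
Log2 change ± standard error from limma for each of the 43 genes, grouped by role: on the left the cold change from the first hour to 2 to 8 h against the control, on the right 24 h against 0 min over the 3 cultures. Red points have an adjusted p under 0.05 (22 lower on the left, 34 lower and 1 higher on the right) and grey points do not.

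At 24 h, with the 3 cultures standing in as replicates whatever their temperature, 34 of the 43 genes were lower than at 0 min and 1 was higher (21.4% and 18.3% of all genes), with a median of -1.69; 39 had an unadjusted p under 0.05 (48.9% of all genes). The genes not called were CTF4, MSH6, CLB5, ORC1, ORC2, ORC4, ORC6 and MCM3, and the gene that rose was RFC2, by 0.44 ± 0.16 (adjusted p = 0.039). That call was lost without the cold culture (value 0.26, adjusted p = 0.3), without the control culture and with array weights, and RFC2 in the heat at 24 h stood 0.04 from its start. Single cultures differed in depth: 17 genes were at least 2-fold lower in all 3 cultures (3.58% of all genes), and the 7 genes MCM3, MCM4, ORC1, ORC2, ORC3, ORC6 and RFC2 in none (67.6% of all genes). The control was the lowest, below the cold culture for 32 of the 43 genes (51.3% of all genes) and below the heat culture for 37 (50% of all genes), each taken from its own start. Without the control culture limma called 2 of the 43 genes lower, CDC21 and RFA3, and without the heat culture 29. Over all genes 78 and 645 were lower in these fits, against 1164 in the main fit. Called lower both here and in the later cold hours were 16 of the 43 genes (4.24% of all genes), out of 34 here and 22 there. Whether that overlap goes beyond what these 2 counts alone would give was not tested. The 2 comparisons share arrays of the cold and control cultures.

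Both genes of deoxynucleotide supply fell in the cold and at 24 h, and their median at 24 h, -4.24, was the lowest of the 10 roles. The role holds only these 2 genes, and the median of 7 other deoxynucleotide genes in the same test was -0.39. RNR1 (YER070W), which encodes the large subunit of ribonucleotide reductase, the enzyme that makes deoxynucleotides, had control levels of 12.89, 12.83, 12.53, 12.40, 13.003, 12.85, 12.51 and 6.96. Cold levels of RNR1 were 12.87, 13.01, 12.94, 12.73, 12.29, 11.38, 10.11 and 9.86. Heat levels of RNR1 were 13.001, 12.02, 10.40, 11.52, 13.67, 13.18, 12.30 and 8.86. The control held RNR1 near 12 to 13 until 8 h and was lowest at 24 h, the cold arrays from 2 h on all lay below those of the first hour, and the heat series had its dip at 30 min and its highest value at 2 h. RNR1 fell by 1.84 ± 0.45 in the later cold hours against the first (limma adjusted p = 0.015) and fell by 4.36 ± 0.79 at 24 h (adjusted p = 0.00087). For RNR1, the cold call was lost without 4 h or 8 h (adjusted p up to 0.073) and the 24 h call was lost without the control culture (adjusted p up to 0.077). RNR1 with 24 h in the later window had a cold value of -0.73 (adjusted p = 0.61, call lost). At 24 h its control level, 6.96, lay below its cold level, 9.86. CDC21 (YOR074C), the thymidylate synthase gene, had control levels of 11.84, 11.86, 11.71, 11.49, 11.86, 11.94, 11.38 and 6.29. Cold levels of CDC21 were 11.70, 11.63, 11.49, 11.18, 10.64, 9.62, 8.13 and 7.62. Heat levels of CDC21 were 12.85, 12.78, 11.96, 12.04, 12.75, 12.89, 11.77 and 10.09. CDC21 shared the stepwise cold descent and the late low of the control, and at 30 min of heat it stood -0.89 from its start where RNR1 stood -2.60. It fell by 2.01 ± 0.41 in the later cold hours (adjusted p = 0.0081) and fell by 4.13 ± 0.66 at 24 h (adjusted p = 0.00041). For CDC21, the cold call was lost without 4 h (adjusted p up to 0.055) and the 24 h call held at each leave-out (adjusted p at most 0.045). CDC21 with 24 h in the later window had a cold value of -1.11 (adjusted p = 0.36, call lost). The control level of CDC21 at 24 h, 6.29, lay under the dim bound of 6.53, so the depth of that fall is uncertain.

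**Figure D4:**
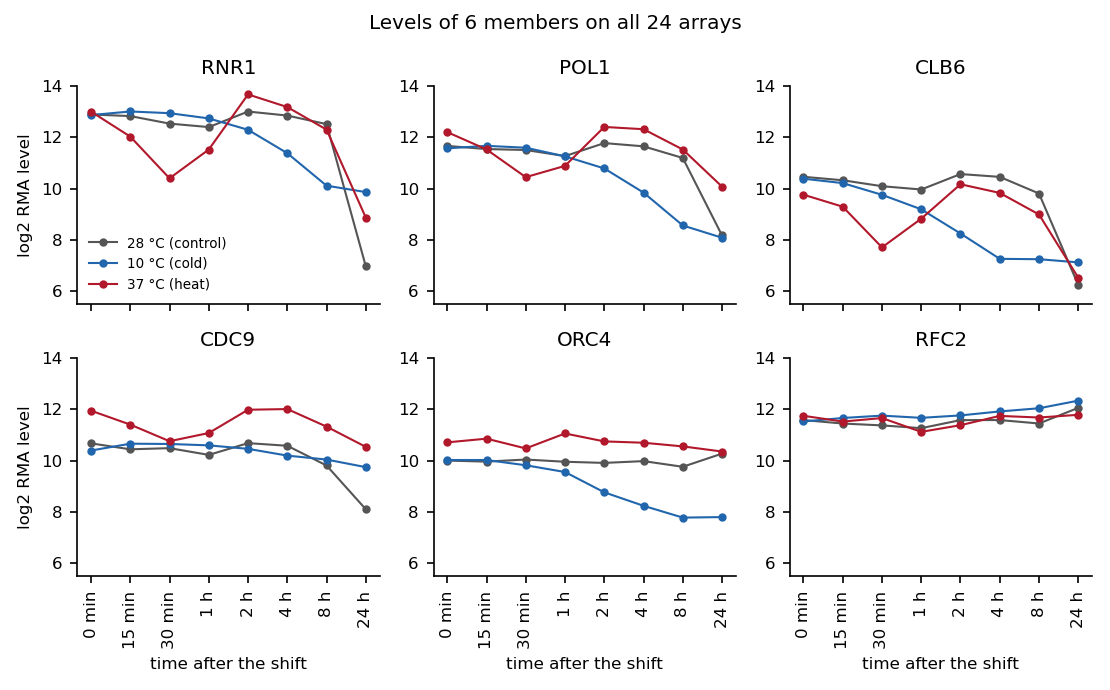
Log2 level on every array against time for RNR1, POL1, CLB6, CDC9, ORC4 and RFC2, with 1 line per culture and 1 array per point. The first 4 were named by the rule given with the methods; ORC4 and RFC2 were added after their values were seen, ORC4 because its cold line descends (10.02 at 0 min to 7.78 at 8 h) and RFC2 because no line descends by 2-fold.

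Among the polymerases, POL1 (YNL102W), the catalytic subunit of polymerase alpha, which starts each new strand, had control levels of 11.66, 11.54, 11.50, 11.26, 11.77, 11.65, 11.19 and 8.17. Cold levels of POL1 were 11.57, 11.66, 11.59, 11.25, 10.78, 9.84, 8.56 and 8.08. Heat levels of POL1 were 12.20, 11.52, 10.44, 10.88, 12.40, 12.31, 11.52 and 10.07. POL1 in the cold at 24 h was as low as in the control at 24 h, and its heat arrays were low from 15 min to 1 h and back at the start at 2 h. POL1 fell by 1.88 ± 0.39 in the later cold hours (adjusted p = 0.0083) and fell by 3.04 ± 0.62 at 24 h (adjusted p = 0.0015). For POL1, the cold call was lost without 4 h (adjusted p up to 0.055) and the 24 h call was lost without the control culture (adjusted p up to 0.096). POL1 with 24 h in the later window had a cold value of -1.45 (adjusted p = 0.057, call lost). POL12, the regulatory subunit of the same complex, fell by 2.61 ± 0.45 in the cold (adjusted p = 0.0044), the largest drop among the 43 genes in that test. The primase subunits PRI1 and PRI2 were at -0.33 ± 0.16 and -0.59 ± 0.22 and were not called there, and the 4 subunits ranged at 8 h of cold from -3.27 for POL12 to -0.07 for PRI1. At 24 h in the control the same 4 lay closer, between -3.49 for POL1 and -1.84 for PRI1. POL2, the catalytic subunit of the leading strand polymerase epsilon, fell by 1.15 ± 0.24 in the cold (adjusted p = 0.0085; 0.051 without 4 h; -0.78, adjusted p = 0.15, with 24 h added).

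The sliding clamp and its loaders come next. POL30 (YBR088C), which encodes PCNA, the ring that tethers polymerases to DNA, had control levels of 12.82, 12.71, 12.52, 12.35, 12.86, 12.79, 12.36 and 7.57. Cold levels of POL30 were 12.61, 12.90, 12.86, 12.66, 12.40, 11.51, 10.59 and 10.34. Heat levels of POL30 were 12.35, 11.50, 10.49, 11.23, 12.47, 11.92, 11.52 and 8.94. Control POL30 stayed between 12.35 and 12.86 until 8 h and was lowest at 24 h. Cold POL30 was lower on each array after 30 min, and heat POL30 was lowest before 24 h at 30 min. It fell by 1.45 ± 0.34 in the later cold hours (adjusted p = 0.012) and fell by 3.64 ± 0.62 at 24 h (adjusted p = 0.00059). For POL30, the cold call was lost without 4 h (adjusted p up to 0.073) and the 24 h call was lost without the control culture (adjusted p up to 0.06). POL30 with 24 h in the later window had a cold value of -0.47 (adjusted p = 0.72, call lost). Of the 5 subunits of RFC, the loader that opens the ring, RFC4 passed the test in the cold and fell by 0.93 ± 0.22 (adjusted p = 0.013; up to 0.072 without 15 min, 30 min or 4 h; -0.66, adjusted p = 0.18, with 24 h added). RFC1, RFC2, RFC3 and RFC5 were at -0.32 ± 0.18, 0.04 ± 0.18, -0.56 ± 0.23 and -0.35 ± 0.17 and were not called, and a difference between subunits was not tested. RFC subunits ranged in the control at 24 h from -3.81 for RFC5 to 0.48 for RFC2. RFC2, a small subunit shared by the loaders, had cold levels of 11.53, 11.66, 11.76, 11.67, 11.76, 11.92, 12.04 and 12.34 and was the only one above its start there at 8 h, by 0.52. CTF18, the large subunit of the alternative loader linked to cohesion, fell by 1.42 ± 0.36 in the cold (adjusted p = 0.018; up to 0.091 when 15 min, 1 h, 4 h or 8 h was left out; -0.68, adjusted p = 0.51, with 24 h added).

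The fork proteins include the 3 subunits of RPA. RFA3 (YJL173C), the smallest RPA subunit and the shortest of the 43 genes at 369 bases of coding sequence, had control levels of 12.22, 12.20, 12.09, 12.02, 12.34, 12.34, 11.96 and 8.44. Cold levels of RFA3 were 12.26, 12.15, 12.09, 11.87, 11.85, 11.998, 11.70 and 11.23. Heat levels of RFA3 were 9.64, 9.61, 9.62, 8.89, 9.48, 9.63, 8.69 and 7.51. The heat levels of RFA3 did not overlap with its control levels before 24 h, starting at 0 min, before any warming, and the kit difference named above lies between them. RFA3 was at -0.30 ± 0.22 in the later cold hours and was not called, and it fell by 2.32 ± 0.43 at 24 h (adjusted p = 0.00096). For RFA3, the 24 h call held at each leave-out (adjusted p at most 0.046). The large subunit RFA1 was at -0.69 ± 0.23 in the cold (adjusted p = 0.0502, not called) and RFA2 fell by 0.97 ± 0.23 (adjusted p = 0.012; up to 0.069 without 15 min, 30 min or 4 h; -0.49, adjusted p = 0.56, with 24 h added). In the control at 24 h all 3 were at least 2-fold lower, between -3.79 and -3.01. TOF1, which steadies the fork at obstacles, fell by 1.32 ± 0.22 in the cold (adjusted p = 0.0038; -0.61, adjusted p = 0.5, with 24 h added) and CTF4, which couples the helicase to polymerase alpha, by 0.87 ± 0.19 (adjusted p = 0.011; up to 0.067 without 15 min, 30 min or 4 h).

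In lagging strand maturation, CDC9 (YDL164C), the DNA ligase that seals Okazaki fragments, had control levels of 10.67, 10.44, 10.49, 10.22, 10.68, 10.58, 9.81 and 8.10. Cold levels of CDC9 were 10.39, 10.66, 10.65, 10.60, 10.46, 10.20, 10.04 and 9.75. Heat levels of CDC9 were 11.95, 11.41, 10.76, 11.08, 11.99, 12.01, 11.33 and 10.54. The lowest cold array of CDC9, at 24 h, stood -0.65 from the start, and its lowest heat array before 24 h, at 30 min, stood -1.19 from the start. It was at -0.38 ± 0.22 in the later cold hours (adjusted p = 0.23, not called) and fell by 1.54 ± 0.34 at 24 h (adjusted p = 0.0027). For CDC9, the 24 h call was lost without the control culture (adjusted p up to 0.14). RAD27, the flap endonuclease that trims the same fragments, fell by 1.99 ± 0.47 in the cold against the control (adjusted p = 0.014, up to 0.069 without 30 min, 1 h or 4 h). From the first hour to 2 to 8 h its mean change went from 0.33 to -1.17 in the cold and from -0.31 to 0.18 in the control. With 24 h added RAD27 was at -1.59 (adjusted p = 0.056). MSH6, which recognises mismatches behind the fork, fell by 1.17 ± 0.31 (adjusted p = 0.021; up to 0.098 without 15 min, 1 h, 4 h or 8 h).

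In origin recognition and licensing, 3 of 7 genes fell in the cold (ORC1, ORC4 and ORC6) and 3 at 24 h (CDC6, ORC3 and ORC5), against 11.5% and 21.4% of all genes. CDC6 (YJL194W), the loader that joins ORC in G1 to bring in the helicase, had control levels of 10.04, 10.001, 9.72, 9.66, 9.70, 9.79, 9.14 and 7.21. Cold levels of CDC6 were 9.92, 10.16, 9.83, 9.72, 9.44, 8.87, 8.74 and 8.53. Heat levels of CDC6 were 10.73, 9.95, 9.90, 10.42, 10.48, 10.71, 10.41 and 10.37. CDC6 was low at 24 h in the control, drifted down in the cold and stayed between 9.90 and 10.73 on all heat arrays. CDC6 was at -0.63 ± 0.27 in the later cold hours (adjusted p = 0.11, not called) and fell by 1.53 ± 0.44 at 24 h (adjusted p = 0.012). For CDC6, the 24 h call was lost without the control culture (adjusted p up to 0.29) and with array weights, where the value was -0.72 (adjusted p = 0.14). Among the ORC subunits, ORC4, named after its values were seen, had cold levels of 10.02, 10.02, 9.82, 9.56, 8.76, 8.24, 7.78 and 7.80 and control levels of 10.002, 9.96, 10.04, 9.96, 9.91, 9.98, 9.76 and 10.27. Every cold array of ORC4 from 1 h on lay below every control array, and the control did not descend at 24 h. ORC4 fell by 1.44 ± 0.27 in the later cold hours (adjusted p = 0.0059; 0.051 without 4 h), ORC1 by 1.00 ± 0.25 (adjusted p = 0.016; up to 0.08 without 15 min, 30 min, 4 h or 8 h) and ORC6 by 0.74 ± 0.22 (adjusted p = 0.029; up to 0.14 without 15 min, 30 min or 4 h; -0.97, adjusted p = 0.059, with 24 h added). ORC2, ORC3 and ORC5 were not called there, at -0.11 ± 0.19, -0.35 ± 0.18 and -0.21 ± 0.20. The 6 subunits ranged at 8 h of cold from -2.25 for ORC4 to 0.04 for ORC2, and at 24 h in the control from -1.70 for ORC5 to 1.06 for ORC6.

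The helicase subunits MCM2 to MCM7, which form 1 ring, gave no call in the cold, at values between -0.69 ± 0.28 for MCM7 and 0.10 ± 0.16 for MCM3. At 8 h of cold the 6 ranged from -1.13 for MCM5 to -0.18 for MCM3, at 30 min of heat from -0.78 for MCM3 to -0.42 for MCM5, and at 24 h in the control from -2.84 for MCM5 to -0.81 for MCM3. At 24 h limma called MCM2, MCM4, MCM5, MCM6 and MCM7 lower, with MCM5 at -1.73 ± 0.36 (adjusted p = 0.0017), and not MCM3 at -0.27 ± 0.27. All 5 calls were lost without the control culture, where the adjusted p of MCM5 was 0.084. CDC45 (YLR103C), which joins the loaded ring to make the active helicase, had control levels of 10.26, 10.12, 9.97, 9.69, 10.37, 10.21, 9.66 and 6.01. Cold levels of CDC45 were 10.25, 10.28, 10.15, 9.78, 9.13, 8.16, 7.91 and 8.15. Heat levels of CDC45 were 11.39, 10.73, 10.01, 10.62, 11.67, 11.51, 10.95 and 8.87. CDC45 in the cold lay about 2 units below its start at 4 to 24 h, the control reached its lowest value at 24 h, and the heat arrays dipped at 30 min and were back above the start at 2 h. That control value, 6.01, lay under the dim bound of 6.53, so the depth of the fall is uncertain. CDC45 fell by 1.82 ± 0.28 in the later cold hours (adjusted p = 0.0033) and fell by 2.95 ± 0.62 at 24 h (adjusted p = 0.002). For CDC45, the cold call held at each leave-out (adjusted p at most 0.038) and the 24 h call was lost without the control culture (adjusted p up to 0.11). CDC45 with 24 h in the later window had a cold value of -0.87 (adjusted p = 0.45, call lost).

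The S phase cyclins, which activate Cdc28 to fire origins, both fell in the cold, and CLB6 was also called at 24 h. CLB5 (YPR120C), the main S phase cyclin, had control levels of 10.31, 10.14, 9.96, 9.91, 10.40, 10.32, 9.93 and 9.64. Cold levels of CLB5 were 10.15, 10.51, 10.39, 10.24, 9.92, 8.82, 8.000 and 8.33. Heat levels of CLB5 were 10.69, 10.13, 9.99, 9.66, 10.63, 10.77, 10.34 and 10.02. The lowest control array of CLB5, at 24 h, stood -0.67 from its start, the lowest heat array, at 1 h, stood -1.02, and only its cold arrays of 4, 8 and 24 h lay below 9. It fell by 1.68 ± 0.35 in the later cold hours (adjusted p = 0.0081) and was at -1.05 ± 0.47 at 24 h (adjusted p = 0.082, not called). For CLB5, the cold call was lost without 30 min or 4 h (adjusted p up to 0.058). CLB5 with 24 h in the later window had a cold value of -1.68 (adjusted p = 0.0074). CLB6 (YGR109C), its close partner, which acts early in S phase, had control levels of 10.46, 10.32, 10.09, 9.96, 10.56, 10.45, 9.81 and 6.23. Cold levels of CLB6 were 10.38, 10.21, 9.75, 9.19, 8.24, 7.26, 7.24 and 7.12. Heat levels of CLB6 were 9.76, 9.29, 7.70, 8.82, 10.17, 9.83, 8.99 and 6.52. CLB6 was lower on each cold array than on the one before, nearly flat from 4 h, and at 30 min of heat stood -2.06 from its start. Its last control array stood -4.22 from the start and was 1 of the 7 values of the group under the dim bound, as was its last heat array. CLB6 fell by 2.29 ± 0.40 in the later cold hours (adjusted p = 0.0047) and fell by 3.58 ± 0.71 at 24 h (adjusted p = 0.0013). For CLB6, the cold call held at each leave-out (adjusted p at most 0.044) and the 24 h call was lost without the control culture (adjusted p up to 0.088). CLB6 with 24 h in the later window had a cold value of -1.39 (adjusted p = 0.23, call lost).

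Of the checkpoint kinases, DUN1 (YDL101C), which raises deoxynucleotide supply when replication is blocked, had control levels of 10.61, 10.56, 10.52, 10.12, 10.53, 10.56, 9.75 and 7.45. Cold levels of DUN1 were 10.58, 10.23, 10.20, 10.06, 9.92, 9.73, 9.19 and 8.53. Heat levels of DUN1 were 10.94, 11.45, 11.10, 10.91, 11.43, 11.39, 10.79 and 10.33. The heat arrays of DUN1 showed no dip: at 30 min it stood 0.16 above its start, while 39 of the 43 genes were below theirs (47.3% of all genes). It was at -0.43 ± 0.16 in the later cold hours (adjusted p = 0.071, not called) and fell by 1.94 ± 0.35 at 24 h (adjusted p = 0.0008). For DUN1, the 24 h call was lost without the control culture (adjusted p up to 0.066). RAD53, the kinase above it, was at -0.52 ± 0.26 in the cold and was not called, and at 30 min of heat it stood -1.13 from its start.

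All 3 cohesin subunits fell in the cold and at 24 h. MCD1 (YDL003W), the ring-closing subunit cleaved at anaphase, had control levels of 11.09, 10.97, 10.85, 10.57, 11.18, 11.14, 10.59 and 7.13. Cold levels of MCD1 were 10.75, 10.88, 10.69, 10.44, 9.72, 9.07, 8.30 and 7.31. Heat levels of MCD1 were 10.78, 10.30, 9.70, 9.51, 11.34, 10.68, 10.41 and 8.40. Each cold array of MCD1 after 15 min was lower than the array before it. The control stayed between 10.57 and 11.18 until 8 h, and the heat series had its lowest arrays before 24 h at 30 min and 1 h. MCD1 fell by 1.82 ± 0.23 in the later cold hours (adjusted p = 0.0025) and fell by 3.26 ± 0.55 at 24 h (adjusted p = 0.00057). For MCD1, the cold call held at each leave-out (adjusted p at most 0.035) and the 24 h call was lost without the control culture (adjusted p up to 0.066). MCD1 with 24 h in the later window had a cold value of -1.29 (adjusted p = 0.069, call lost). The other ring subunits SMC1 and SMC3 fell by 1.33 ± 0.22 and 1.53 ± 0.35 in the cold (adjusted p = 0.0038 and 0.012, the latter up to 0.068 without 30 min or 4 h). With 24 h in the later window SMC1 was at -0.70 (adjusted p = 0.37, call lost). At 8 h of cold the 3 subunits lay between -2.45 and -1.89, all at least 2-fold lower.

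The depth reached in the later cold hours and in the control at 24 h can be set side by side for each gene, the 2 changes having separate 0 min arrays. At least 2-fold lower in both were 20 of the 43 genes (4.66% of all genes), which is 20 of the 25 in the cold at 8 h and 20 of the 30 in the control at 24 h. CLB5, CTF4, MSH6, ORC1 and ORC4 reached 2-fold only in the cold, and CDC9, MCM2, MCM7, ORC5, PRI1, PRI2, RAD53, RFA3, RFC1 and RFC5 only in the control. MCM3, MCM4, MCM6, ORC2, ORC3, ORC6, RFC2 and RFC3 reached it in neither. The difference between these 2 arrays was not tested. The 13 genes 2-fold lower at 30 min of heat were CDC45, CDC9, CLB6, MCD1, MSH6, POL1, POL12, POL30, PRI2, RAD27, RAD53, RNR1 and SMC3, and 10 of them were among the 25 of the 43 in the cold at 8 h. That overlap was not counted over all genes, of which 10% and 11.9% were 2-fold lower on these 2 arrays. Whether it goes beyond what the counts of 13 and 25 alone would give was not tested.

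**Figure D5:**
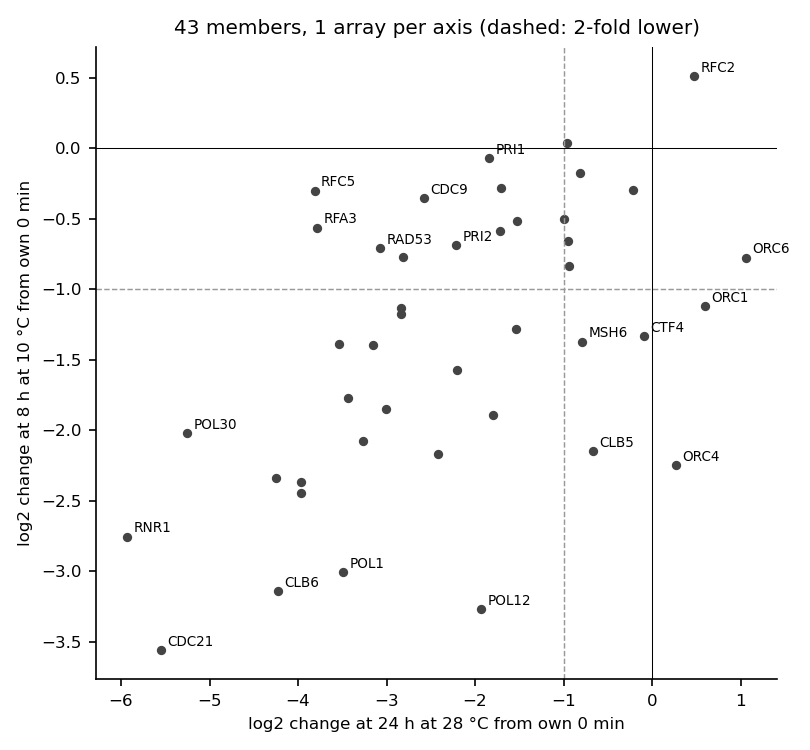
Log2 change of each of the 43 genes in the cold at 8 h (vertical) against the control at 24 h (horizontal), each from its own 0 min array, with lines at a 2-fold drop. The 20 genes past both lines sit at the lower left, and ORC4, ORC1, CLB5, CTF4 and MSH6 pass only the cold line.

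Other genes of the same pathways, listed by function, were read from the same fits, in which 11.5% of all genes were called lower in the later cold hours, and 21.4% lower and 18.3% higher at 24 h. Of 25 other fork and initiation genes 8 fell in the later cold hours, among them the GINS helicase subunits PSF1, PSF2 and PSF3 (-0.89 ± 0.23, -1.14 ± 0.23 and -0.92 ± 0.21) and ELG1, which unloads PCNA, at -1.97 ± 0.38. At 24 h 12 of these 25 fell, and the initiation factors MCM10 and TAH11 rose, by 1.16 ± 0.44 and 1.73 ± 0.32. Of 7 other deoxynucleotide genes 3 fell in the cold, with DUT1, the dUTPase, at -1.05 ± 0.28 and DFR1, dihydrofolate reductase, at -1.07 ± 0.34, and 3 fell at 24 h. Of 11 other cohesin and chromatin assembly genes 7 fell in the cold and 8 at 24 h, PDS5, which keeps cohesin on chromatin, by the most in the cold at -2.19 ± 0.38. Of 9 other checkpoint and repair genes 3 fell in the cold, and 2 fell and 2 rose at 24 h, the 24 h shares being near those of all genes. None of 6 MBF and SBF regulators passed in the cold, and 4 fell at 24 h: SWI4 (-1.96 ± 0.45), NRM1 (-2.66 ± 0.49), SWI6 (-0.55 ± 0.20) and WHI5 (-0.57 ± 0.21).

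Lists that mark other states of the culture held called genes in the same comparisons. Of 10 stationary phase genes SPG1 and SPG4 rose in the later cold hours (1.75 ± 0.58 and 4.29 ± 0.78) and SPG4 and SPG5 at 24 h (3.804 ± 1.29 and 1.44 ± 0.27), against 13.2% and 18.3% of all genes called higher. Their median change was 1.01, 1.03 and 1.00 at 24 h in the control, cold and heat cultures, -0.91 at 1 h and 0.73 at 8 h of cold, and 2.06 at 30 min of heat. The list also holds heat shock protein genes, so a rise of its median after a shift cannot be read as stationary phase alone. At 24 h 5 of the 10 were at least 2-fold higher in each culture (20.3% of all genes in the control, at most 16.6% in the others). The list also held genes at least 2-fold lower there: 1 in the control, 2 in the cold and 1 in the heat (20.5%, 13% and 17.2% of all genes). Summed over the list, log2 levels ran from 118.1 at the start to 128.2 at most in the control, from 104.4 to 128.8 in the cold and from 99.6 to 117.9 in the heat, with at most 1 of the 10 genes under the dim bound on any array. Of 10 meiosis genes only REC8, the meiotic kleisin of cohesin, was called in these 2 comparisons, higher by 0.74 ± 0.24 in the cold and 2.05 ± 0.32 at 24 h. Summed log2 levels of that list ran from 73.8 to 78.4 in the control, from 74.3 to 81.2 in the cold and from 80.6 to 85.9 in the heat, with 0 to 2 of its 10 genes under the bound. The part of these states in the changes of the replication genes was not tested.

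Outside the group, the 5 genes whose changes ran closest to the median of the 43 over the 21 arrays after the start were TOS4, a transcription factor gene bound by SBF, SPH1, of polarized growth, TUB4 and SPC97, of the gamma-tubulin complex, and CHS3, a chitin synthase, with Pearson r of 0.986, 0.981, 0.979, 0.971 and 0.970. The arrays of a culture share its 0 min array, so these are descriptions. TOS4 stood at -4.34 in the control at 24 h, -2.48 in the cold at 8 h and -0.995 at 30 min of heat. Among the 43, the genes least like that median were RFC2 with r of -0.58, ORC6 with -0.02, ORC1 with 0.16 and MCM3 with 0.24.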

How the data were processed

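Total RNA of 24 yeast samples was hybridised to yeast oligonucleotide arrays, 1 array per time and temperature. The authors deposited normalized log2 intensities made with RMA, per the submitters' processing notes, whose version was not given in the sources used here. RMA equalises the distribution of values between arrays, so a shift in total mRNA cannot be seen. Probe sets were named from the platform annotation of 2016: of 10928, 5498 had 1 yeast gene, 1 had several, 1746 belonged to another species and 3683 were unlisted and not used. Several probe sets were averaged for 47 genes, giving 5449. All 43 genes, their role lists and the other lists were chosen with earlier results of these data known.

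Limma 3.58.1 in R 4.3.3 was fitted across all 5449 genes and 24 arrays with time as a block and a heat and a cold term for the start, the first hour, 2 to 8 h and 24 h (8 residual degrees of freedom), and, for 24 h against 0 min, with culture and time (14). P-values were adjusted by Benjamini-Hochberg over all genes. A value after ± is a standard error. The number of arrays limits the precision. Values on every array are given for CLB5, CLB6, RNR1, POL1, POL30, CDC21, CDC6 and MCD1 and for the gene of each role with the widest range of change over the 21 later arrays; other replication genes are given by counts, ranges and test values. Genes outside the group are named if called in the other lists or among the 5 closest to the group's median. Names and coding lengths came from RefSeq. The fit was tested on simulated data. Alternatives were no 0 min subtraction, a later window of 2 to 24 h, a second quantile normalization, array weights, genes above the dim bound only, only the cultures compared, 24 h against the mean of 0 min to 1 h, and leaving out each time or culture. Promoter sequences were not used here.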

Additional observations from a re-analysis of the deposited data

Results flagged for a closer look

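The change from the first hour to 2 to 8 h differed between the heat and the cold culture, tested directly in limma in a comparison added after the values had been seen, and 37 of the 43 genes passed (Benjamini-Hochberg adjusted p under 0.05). Over all genes 24.3% passed as higher and 25.1% as lower. Among the genes given in full, the heat change exceeded the cold change by 3.37 ± 0.45 for RNR1, 3.19 ± 0.40 for CLB6, 2.91 ± 0.39 for POL1, 2.61 ± 0.23 for MCD1, 2.59 ± 0.28 for CDC45 and 2.21 ± 0.34 for POL30. The same difference was 2.18 ± 0.41 for CDC21, 2.11 ± 0.35 for CLB5, 1.33 ± 0.27 for CDC6, 1.10 ± 0.22 for CDC9 and 0.60 ± 0.16 for DUN1, the last with an adjusted p of 0.01 that was 0.057 without the 30 min arrays. Of the 37 genes, 27 passed at every leave-out of a time. The control arrays cancel in this difference and enter only its estimate of spread. The amplification kit differed between the heat and cold samples.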

How the results depend on the processing

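The main limits are 1 array per time, a single 0 min array per culture and the extra kit of the heat samples. No paired analysis was possible because the labels carry no replicate numbers; time was already a block. Analysis of promoter motifs was not run. The estimation of array weights did not converge, so its counts are uncertain. Without 0 min subtraction each window was set against the control at the same times, using no 0 min array. Limma then called 8 of the 43 genes lower in the first hour of heat (median 0.30) and 4 in the later heat (median 0.74). It called 2 higher in the first hour of cold and 30 lower in the later cold. Over all 5449 genes the same calls numbered 1576, 1630, 887 and 1035, and 2418 and 2511 genes were higher in the early and later heat. With array weights the calls among the 43 were 3 lower in early heat, 6 higher in early cold, 34 lower in later cold, 40 lower in later cold against the first hour, and 1 higher with a median of 0.31 for the heat return. Over all genes these calls numbered 360, 910, 1332, 2059 and 136. With 24 h added to the later window, the median was 0.25 in the later heat and 0.75 for its return, 7 genes were lower in the later cold against the first hour (390 of all genes), and 20 were higher in heat minus cold (976 of all genes). In that window the cold values of CDC9, DUN1 and RFA3 turned to 0.066, 0.0056 and 0.49, and heat minus cold for RFA3 to -0.21. The cold values there are taken against the control, in which RFA3 at 24 h stood -3.79 from its start, against -1.03 in the cold. In heat minus cold RFA3, not called, was -0.075 without 1 h, -0.03 without 2 h and -0.03 without 4 h, and at most 0.29, without 8 h. A second quantile normalization gave 2 calls in the later cold against the start (27 of all genes lower, 20 higher) and a median of 0.36 for the heat return. Leaving out each time gave 0 to 12 calls in the later cold against the start, 6 to 25 against the first hour, 28 to 38 in heat minus cold, and medians of -0.021 to 0.014 in the later heat and 0.21 to 0.40 for its return. Over all genes those counts ran from 0 to 195 lower, 77 to 871 lower and 873 to 1410 higher. Leaving out each culture gave 2 to 32 lower calls at 24 h (78 to 1312 over all genes). The count over all genes in the later cold against the first hour was 1348, from 240 without 4 h to 4161 with array weights; at 24 h it was 2159, from 132 without the control culture to 2627 with 24 h set against the mean of the first 4 arrays.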
